A study of Mus musculus with 11 samples.

Results

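The fibroblast growth factor (FGF) genes described here comprise the ligands, their receptors and the intracellular feedback genes that FGF signalling induces. They were taken by gene symbol, not by expression: every Fgf gene with a number, Fgfr1 to Fgfr4, Spry1 to Spry4, Spred1 to Spred3, Dusp6, Etv4 and Etv5, where a probe set of the array was annotated with that symbol alone. This gave 36 genes of the 18193 with a probe set of their own: 22 ligands, 4 receptors, 4 Sprouty genes, 3 Spred genes, 1 phosphatase and 2 ETV factors. Etv1 met the symbol rule, but each of its 3 probe sets carried 2 symbols, so it is not among them. The 36 genes have 82 probe sets, and 14 of the genes have 1 only. Where a gene had several, the one with the highest mean over all arrays stands for it.

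RNA came from pooled mouse hearts at embryonic day 9.5, measured on 11 one-colour oligonucleotide arrays. The conditional knockout (CKO) group had 5 arrays labelled Gata4 flox/flox; Nkx2-5 cre/+. The double heterozygous group had 3 arrays labelled Gata4 flox/+; Nkx2-5 cre/+, and the control group had 3 arrays labelled Gata4 flox/+; Nkx2-5 +/+. All 11 arrays therefore carry at least 1 floxed Gata4 allele, and Cre stands at the Nkx2-5 locus in place of 1 normal copy, so the CKO and double heterozygous hearts share the loss of that copy. Cre is driven from Nkx2-5, a gene of cardiac progenitors and myocardium, and cells of the dissected heart that have never expressed it keep the floxed Gata4 alleles they carry. Each array holds RNA of several hearts, and nothing in the labels says whether the pools came from separate litters, so p-values measure the spread between these arrays only.

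FGF ligands are secreted proteins that bind receptor tyrosine kinases together with heparan sulphate, and the receptors signal through RAS and the ERK kinases. ERK in turn induces ETS-family transcription factors such as Etv4 and Etv5, and inhibitors of the same route: the Sprouty and Spred proteins, which act on RAS and RAF, and Dusp6, a phosphatase that removes the activating phosphates of ERK. In the mouse embryo Fgf8 and Fgf10 are known from the second heart field, the pharyngeal mesoderm that adds cells to the outflow tract and right ventricle, and Fgf9, Fgf16 and Fgf20 are known as growth signals for the myocardium.

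Levels below are log2(intensity + 16) after quantile normalisation, and on that scale a deposited intensity of 0 lies at 4. They are compared between groups of arrays for 1 gene at a time, never between genes. Mean deposited intensity was 115.7 in CKO replicate 3 and between 164.6 and 173.7 in the other 10 arrays. CKO replicate 2 had an actin 3'-minus-5' log2 difference of 1.0, against 0.29 to 0.45 in the rest, which is a measure of RNA quality. The targeted gene did not read lower in the hearts labelled CKO: Gata4 averaged 9.43 ± 0.11 in CKO (SD, n = 5), 9.31 ± 0.10 in double heterozygous (n = 3) and 8.98 ± 0.19 in control arrays (n = 3), 0.45 higher in CKO than in control (SE 0.097, adjusted p = 0.0321, limma). No source used here says whether this probe set lies in the deleted part of Gata4, so it neither checks nor contradicts the labels, and "CKO" below means the arrays so labelled. Nkx2-5 averaged 9.34 ± 0.34 in CKO, 9.48 ± 0.10 in double heterozygous and 9.87 ± 0.06 in control arrays, and every CKO and double heterozygous array lay below every control array (-0.53 for CKO over control, SE 0.15, adjusted p = 0.0990). The myocardial marker Tnnt2 averaged 12.51, 12.47 and 12.48 in the same order. It is 1 of 6 myocardial markers listed, and not all were as steady. By limma Myh6 had an unadjusted p under 0.05 in CKO against control, as did Nppa and Myh6 in CKO against double heterozygous arrays, without a call. In RNA of whole hearts, fewer cells of a type and less RNA per cell cannot be told apart.

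No FGF gene changed between genotypes at an adjusted p under 0.05. In CKO against control arrays 0 of the 36 genes were called, beside 2.09% of all genes and 1.4% of all probe sets. In CKO against double heterozygous arrays 0 were called, beside 0.55% of all genes and 0.349% of all probe sets. In double heterozygous against control arrays 0 were called, beside 0% of all probe sets. The F-test over the 3 genotypes also called 0 of 36, beside 0.961% of all probe sets, and 7 of the genes had an unadjusted p under 0.05 in it, against 13.6% of all genes. None of the 82 probe sets was called in any of the pairwise comparisons by limma. At an unadjusted p under 0.05, 6 of the 36 genes differed between CKO and control, 16.7% of them against 15.5% of all genes, so the share is near the background. All 6 were higher in CKO (Spry1, Fgfr1, Dusp6, Fgf8, Spred1 and Spry2) and 0 were lower, where 6.35% of all genes passed on the higher and 9.14% on the lower side. The count depends on the scaling and the arrays: it was 2 on the deposited scale, 4 after median centring and 10 without CKO replicates 2 and 3. No share of all genes at this unadjusted p is given for these settings. The share of all probe sets called at an adjusted p under 0.05 moved the same way. It was 0.204%, 0.804% and 3.02% in the same order, against 1.4% in the main fit. Over all 36 genes 25 had a higher mean in CKO and 11 a lower one, where 46.8% of all genes had a higher mean. The median difference of the 36 was 0.05, beside -0.02 for all 18193 genes, and single FGF genes ran from -0.29 (Fgf9) to 0.64 (Fgfr1).

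**Figure D1:**
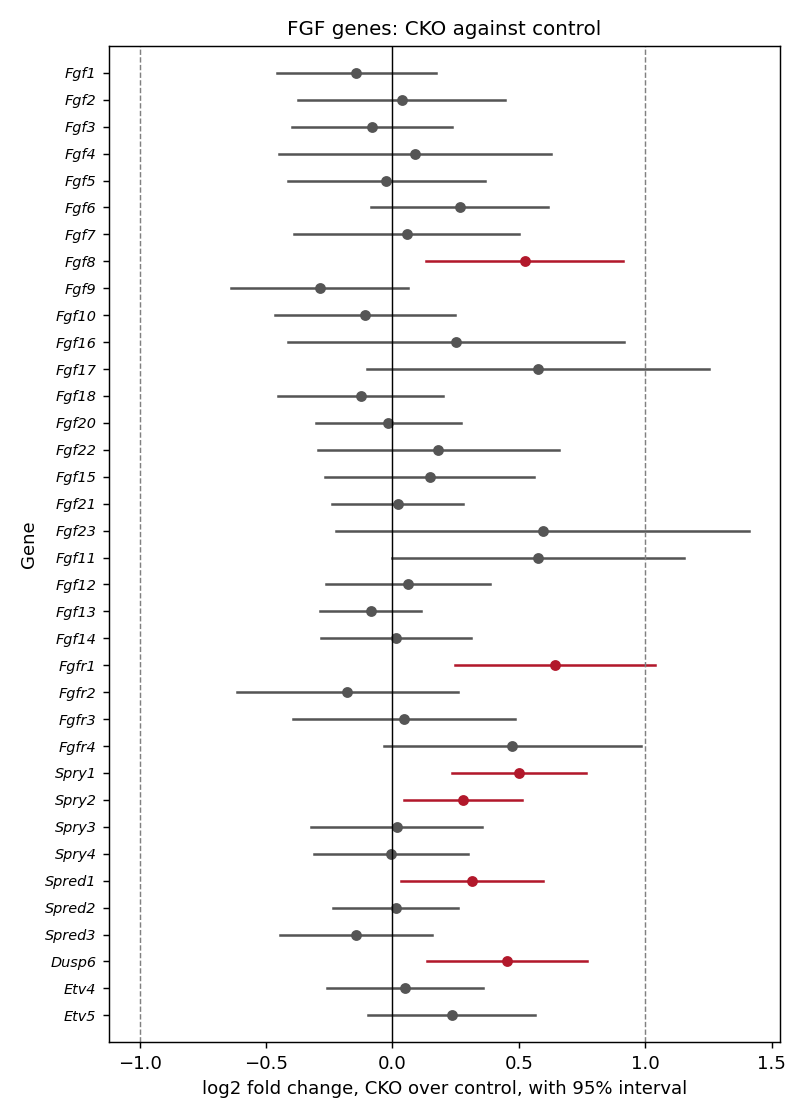
Log2 difference of CKO over control for each of the 36 FGF genes (points) with its 95% interval from the limma fit (bars), ordered by role from ligands at the top to ETV factors at the bottom. Dashed lines mark a 2-fold change either way, and red marks the 6 genes with an unadjusted p under 0.05. For 32 of the 36 genes the whole interval lies within a 2-fold change, and the intervals of Fgf11, Fgf17, Fgf23 and Fgfr1 run past it on the higher side.

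Sprouty genes encode membrane-associated inhibitors of receptor tyrosine kinase signalling. Spry1, with 1 probe set, read 6.71, 6.61, 6.76, 6.70 and 6.90 in CKO arrays, 6.49, 6.33 and 6.74 in double heterozygous arrays and 6.26, 6.21 and 6.24 in control arrays. All 5 CKO arrays and all 3 double heterozygous arrays lay above every control array, and the control arrays differed among themselves by less than any of them differed from a CKO array. The difference of CKO from control was 0.50 (SE 0.12, 95% interval 0.24 to 0.77, adjusted p = 0.0648), a 1.42-fold change, the smallest adjusted p of the 36 genes in that comparison. CKO minus double heterozygous was 0.21 (interval -0.05 to 0.48), and double heterozygous minus control was 0.29 (interval -0.01 to 0.58). The call turned on the arrays and filter used: without CKO replicate 2 the adjusted p was 0.040, without both CKO replicates 2 and 3 it was 0.035, and over the alternatives tried it ran from 0.034 to 0.556.

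Spry2 read 8.64, 8.75, 8.36, 8.79 and 8.73 in CKO arrays, 8.40, 8.30 and 8.55 in double heterozygous arrays and 8.42, 8.44 and 8.26 in control arrays. CKO replicate 3, at 8.36, was the only CKO array inside the range of the controls. The difference from control was 0.28 (SE 0.11, adjusted p = 0.270) and that from double heterozygous arrays 0.24 (SE 0.11, adjusted p = 0.413). The difference from control was 0.13 on the deposited scale, 0.12 after median centring and 0.35 without CKO replicate 3. The other Spry2 probe set had a difference from control of -0.11, so the gene's probe sets disagree in sign. Spry4 read 5.59, 5.86, 5.52, 5.71 and 5.60 in CKO arrays, 5.78, 6.02 and 6.06 in double heterozygous arrays and 5.48, 5.65 and 5.85 in control arrays. Its 3 groups overlapped, with differences of -0.01 for CKO over control (interval -0.31 to 0.30) and -0.30 for CKO over double heterozygous (interval -0.60 to 0.01). Spry3 differed by 0.02 between CKO and control (interval -0.32 to 0.36).

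Dusp6, the ERK phosphatase, has 1 probe set. It read 8.75, 8.76, 8.73, 9.38 and 8.83 in CKO arrays, 8.93, 8.43 and 8.73 in double heterozygous arrays and 8.27, 8.49 and 8.54 in control arrays. All CKO arrays lay above all control arrays, and 4 of them lay within 0.10 of each other, with CKO replicate 4 apart. The double heterozygous arrays spanned the gap between those groups. CKO minus control was 0.45 (SE 0.15, interval 0.14 to 0.77, adjusted p = 0.166). Without CKO replicate 4 the difference was 0.33 (adjusted p = 0.208, with a range of 0.075 to 0.695 over the alternatives tried), and under the deposited scale it was 0.30, so it kept its sign.

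Spred proteins bind RAS-pathway components at the membrane and restrain RAF. Spred1 read 8.11, 8.08, 8.0, 8.41 and 8.43 in CKO arrays, 7.84, 7.79 and 8.15 in double heterozygous arrays and 7.68, 7.99 and 8.0 in control arrays. CKO arrays lay above control arrays throughout, by less than 0.01 between the closest pair, and the difference of the means was 0.32 (SE 0.13, adjusted p = 0.307). It was 0.16 on the deposited scale and 0.16 after median centring. All 8 Spred1 probe sets had a higher mean in CKO than in control arrays, by 0.14 to 0.51. Spred2 differed by 0.01 (interval -0.23 to 0.26), and 4 of its 5 probe sets were higher in CKO. Spred3 read 4.65, 4.91, 4.48, 4.72 and 4.67 in CKO arrays, 4.62, 4.26 and 4.57 in double heterozygous arrays and 4.86, 4.82 and 4.81 in control arrays. The double heterozygous arrays were all below the controls, by -0.35 on average (SE 0.16, interval -0.68 to -0.01, unadjusted p = 0.0429, adjusted p = 1.0). This was the only FGF gene with an unadjusted p under 0.05 in that comparison, 2.78% of the 36 against 2.91% of all genes.

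Dusp6, Spred1 and Spry1, 3 of the 36 genes, had all CKO arrays above all control arrays, which is 8.33% of them, against 4.7% of all genes, and 0 had all CKO arrays below, against 7.55%. The count depends on the scaling: on the deposited scale, where CKO replicate 3 is dimmer, 0 did so (1.08% of all genes), and after median centring Spry1 alone did (1.9%).

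**Figure D2:**
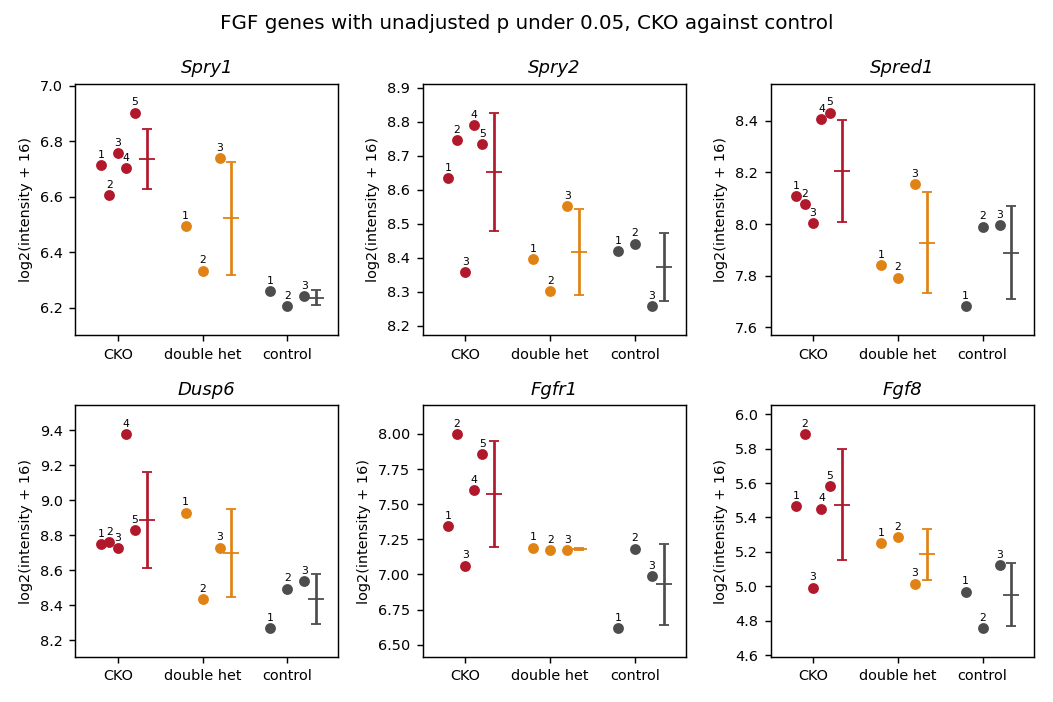
Log2(intensity + 16) of Spry1, Spry2, Spred1, Dusp6, Fgfr1 and Fgf8 in every array, after quantile normalisation, with CKO at the left, double heterozygous in the middle and control at the right. Points are arrays with their replicate number, and bars beside them give the mean and SD. All 5 CKO points lie above the 3 control points for Spry1, Dusp6 and Spred1, and CKO replicate 3 is the lowest CKO point for Spry2, Dusp6, Spred1, Fgfr1 and Fgf8.

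ETV4 and ETV5 are ETS-family transcription factors that rise with FGF signalling in many embryonic tissues. Etv5 read 7.90, 8.15, 7.33, 7.98 and 7.96 in CKO arrays, 7.90, 7.69 and 7.91 in double heterozygous arrays and 7.44, 7.72 and 7.72 in control arrays. Apart from CKO replicate 3, the lowest of all 11 arrays, every CKO array lay above every control array, and the difference of the means was 0.23 (SE 0.15, adjusted p = 0.575). Without CKO replicate 3 it was 0.37 (adjusted p = 0.119, with a range of 0.119 to 0.964 over the alternatives tried). Of its 3 probe sets 1 had a higher and 2 a lower mean in CKO. Etv4 read 5.16, 5.16, 4.93, 5.01 and 5.00 in CKO arrays, 5.07, 5.33 and 4.87 in double heterozygous arrays and 4.90, 5.07 and 5.05 in control arrays. Its groups overlapped fully in this probe set, with a difference of 0.05 (interval -0.26 to 0.36). The other Etv4 probe set, at a mean level of 4.54, gave -0.01 for CKO over control. There all double heterozygous arrays lay below all control arrays (-0.38, interval -0.76 to 0.004). CKO over double heterozygous was 0.36 in it (interval 0.02 to 0.70, adjusted p = 0.386 by limma). The 2 ETV factors thus had a median difference from control of 0.14, against 0.45 for Dusp6 and 0.15 for the 4 Sprouty genes, and 0 of these 7 genes were called.

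The promoter letters of Spry1 and Dusp6 are shown because these genes, each with 1 probe set, had CKO and control arrays that did not overlap and Gata4 encodes a factor that binds GATA letters. Each is the 250 bases before the gene's start in RefSeq (GRCm38.p6), on the plus strand, for Spry1 at chr3:37639697-37639946 and for Dusp6 at chr10:99262981-99263230. Capitals mark the core letters GATA on either strand (read as TATC on the reverse), which in Spry1 overlap as 1 palindrome, GATATC.
Spry1: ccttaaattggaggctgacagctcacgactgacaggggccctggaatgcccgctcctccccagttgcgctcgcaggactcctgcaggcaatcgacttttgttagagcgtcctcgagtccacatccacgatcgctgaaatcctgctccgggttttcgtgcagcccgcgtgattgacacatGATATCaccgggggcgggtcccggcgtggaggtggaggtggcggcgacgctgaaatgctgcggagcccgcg
Dusp6: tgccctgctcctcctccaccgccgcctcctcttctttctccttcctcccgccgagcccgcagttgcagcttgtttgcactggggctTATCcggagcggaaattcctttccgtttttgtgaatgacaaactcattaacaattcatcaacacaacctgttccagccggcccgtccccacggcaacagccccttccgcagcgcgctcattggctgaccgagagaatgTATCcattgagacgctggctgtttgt
The longer GATA motifs searched were these core letters with either A or T in front and either A or G behind, such as AGATAA, on both strands and in windows of 300 bases from 250 before to 50 after the start. They were in neither of these windows. They were in 4 of the 34 windows of the FGF genes (11.8%), those of Fgf23, Fgf3, Fgf9 and Spred3, against 29.8% of all 32851 windows. The ETS letters CCGGAAG were in 0 of 34, against 8.86% of all windows. The core letters GATA, searched after the longer motifs had been counted and contained within them, were in 17 of 34 windows (50%) and in 57.9% of all. The windows searched covered 26 of the 36 genes, some with several starts, and no window of the other genes was searched. The shares of all windows refer to the windows searched, which need not be every window of the source. A match describes letters, not binding.

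Fgfr1, the FGF receptor broadly expressed in mesenchyme, had the largest difference of the 36 genes between CKO and control. It read 7.35, 8.0, 7.06, 7.60 and 7.86 in CKO arrays, 7.19, 7.17 and 7.17 in double heterozygous arrays and 6.62, 7.18 and 6.99 in control arrays. CKO replicate 3, at 7.06, lay within the control range, and the other CKO arrays were above all controls and all double heterozygous arrays. The difference was 0.64 (SE 0.19, interval 0.25 to 1.04, adjusted p = 0.116), a 1.56-fold change, and that from double heterozygous arrays was 0.39 (adjusted p = 0.422). All 3 of its probe sets were higher in CKO than in control arrays, by 0.28 to 0.64. Against double heterozygous arrays its other probe sets were lower in CKO, at -0.17 and -0.06. Without CKO replicate 3 the difference from control was 0.77 and the adjusted p was 0.0251. Without CKO replicate 2 they were 0.54 and 0.127. Over the alternatives tried the adjusted p ran from 0.025 to 0.638.

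Fgfr2, whose isoforms differ between epithelium and mesenchyme, read 7.86, 7.02, 7.61, 8.07 and 7.56 in CKO arrays, 7.90, 7.59 and 8.14 in double heterozygous arrays and 7.45, 7.90 and 8.05 in control arrays. CKO replicate 2 was the lowest of all arrays, and the difference of -0.18 from control (interval -0.61 to 0.26) was -0.03 without it. The other Fgfr2 probe sets gave -0.29 and 0.20. The first of these had all CKO arrays (6.58 to 7.06) below all control arrays (7.07 to 7.11), with an interval of -0.55 to -0.03 and an adjusted p of 0.308. Fgfr3 read 6.56, 5.75, 6.11, 6.84 and 6.67 in CKO arrays, 6.13, 6.23 and 6.36 in double heterozygous arrays and 6.50, 6.16 and 6.36 in control arrays. Its CKO arrays spread on both sides of the others, with a difference of 0.05 (interval -0.39 to 0.49) that was -0.04 on the deposited scale, -0.05 after median centring, 0.20 without CKO replicate 2 and 0.35 without CKO replicates 2 and 3. Its other probe set, which is dim, gave -0.41 (adjusted p = 0.364) and had all double heterozygous arrays below all control arrays. Fgfr4 read 6.59, 6.14, 7.51, 6.37 and 6.57 in CKO arrays, 6.24, 6.21 and 6.66 in double heterozygous arrays and 6.26, 6.28 and 5.94 in control arrays. CKO replicate 3 stood above every other array, and the difference of 0.48 (interval -0.03 to 0.98, adjusted p = 0.418) was 0.26 without it. Of its 5 probe sets 2 had a higher and 3 a lower mean in CKO. No receptor probe set was called, and for Fgfr2, Fgfr3 and Fgfr4 the probe sets disagreed in the sign of the difference from control.

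Fgf8, a secreted ligand of the pharyngeal endoderm, ectoderm and anterior heart field, has 1 probe set. It read 5.46, 5.88, 4.99, 5.45 and 5.58 in CKO arrays, 5.25, 5.29 and 5.02 in double heterozygous arrays and 4.97, 4.76 and 5.13 in control arrays. The deposited intensities behind these levels were 30.5, 41.6, 11, 33.4 and 38.2 in CKO, 21.5, 20.5 and 16.7 in double heterozygous and 13.1, 12.1 and 20.9 in control arrays. CKO arrays other than replicate 3 were above all double heterozygous and control arrays, and replicate 3 lay inside the control range. The difference from control was 0.52 (SE 0.18, interval 0.13 to 0.91, adjusted p = 0.202). Without CKO replicate 3 it was 0.65 (adjusted p = 0.0470, with a range of 0.047 to 0.548 over the alternatives tried). The gene is dim enough for the offset to matter: the difference was 0.88 with an offset of 1 and 0.23 with an offset of 64.

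Fgf10, a ligand used as a mark of the anterior second heart field, read 5.24, 5.02, 4.75, 5.14 and 4.80 in CKO arrays, 5.48, 5.02 and 5.19 in double heterozygous arrays and 5.22, 5.19 and 4.88 in control arrays. The 3 groups overlapped, with a difference of -0.11 for CKO over control (interval -0.46 to 0.25). Fgf15, a ligand of the pharynx and brain in the mouse embryo, read 4.94, 4.46, 4.79, 4.07 and 4.28 in CKO arrays, 4.54, 4.5 and 4.46 in double heterozygous arrays and 4.60, 4.47 and 4.01 in control arrays. All of these are close to the floor of the scale, and the difference was 0.15 (interval -0.27 to 0.56). Fgf3, a ligand of the pharyngeal arches and ear, read 5.29, 5.28, 5.29, 5.02 and 4.99 in CKO arrays, 5.22, 5.28 and 5.47 in double heterozygous arrays and 5.39, 5.05 and 5.33 in control arrays. It too overlapped throughout, at -0.08 (interval -0.40 to 0.23). Among the second heart field ligands Fgf8 alone thus had an interval that lay above 0.

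Fgf9, a ligand of epicardium and endocardium that promotes growth of the myocardium, had the lowest difference of the 36 genes in CKO against control. It read 5.76, 5.91, 5.37, 5.80 and 5.59 in CKO arrays, 5.78, 5.95 and 5.54 in double heterozygous arrays and 5.71, 6.12 and 6.10 in control arrays. Only control replicate 1 came within the range of the other groups. The difference was -0.29 (SE 0.16, interval -0.64 to 0.06, adjusted p = 0.494), and both of its probe sets were lower in CKO. Fgf16, its close relative, read 5.51, 5.06, 6.93, 5.54 and 5.22 in CKO arrays, 5.42, 5.43 and 5.45 in double heterozygous arrays and 5.69, 5.22 and 5.31 in control arrays. CKO replicate 3 stood apart and the groups overlapped, and the difference of 0.25 (interval -0.41 to 0.92) was -0.07 without that array. Fgf20, of the same subfamily, differed by -0.02 (interval -0.30 to 0.27).

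CKO replicate 3 was the highest of the 11 arrays for 7 of the 36 genes: Fgf4, Fgf16, Fgf17, Fgf20, Fgf22, Fgf23 and Fgfr4. On the deposited scale it was the highest for 5 and the lowest for 17. Fgf23, known in the adult as a phosphate-regulating hormone from bone, read 8.30, 7.16, 9.59, 7.77 and 7.42 in CKO arrays, 7.78, 7.26 and 7.88 in double heterozygous arrays and 7.31, 7.59 and 7.46 in control arrays. Its difference of 0.59 from control (interval -0.22 to 1.41, adjusted p = 0.564) was 0.21 without that array. Fgf17, a relative of Fgf8, read 6.86, 6.03, 7.36, 5.99 and 5.74 in CKO arrays, 5.83, 5.40 and 6.17 in double heterozygous arrays and 5.40, 6.19 and 5.86 in control arrays. CKO replicates 1 and 3 were above all others while the remaining CKO arrays lay inside the control range, with a difference of 0.58 (interval -0.10 to 1.25, adjusted p = 0.475) that was 0.34 without replicate 3. Fgf4, a ligand of the early embryo and limb ridge, read 5.76, 5.72, 6.91, 5.44 and 5.64 in CKO arrays, 5.62, 5.79 and 5.42 in double heterozygous arrays and 5.84, 5.75 and 5.83 in control arrays. Its difference of 0.09 became -0.17 without CKO replicate 3. The part that the lower intensity of this array plays in these values was not tested.

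**Figure D3:**
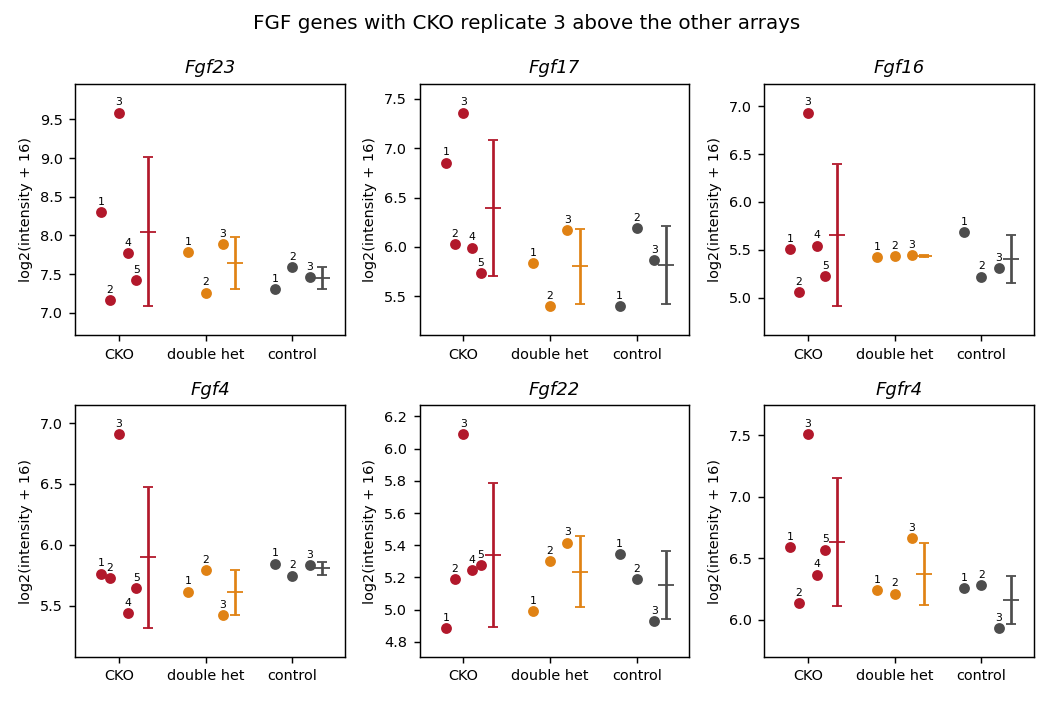
Log2(intensity + 16) of Fgf23, Fgf17, Fgf16, Fgf4, Fgf22 and Fgfr4 in every array, after quantile normalisation, with CKO at the left, double heterozygous in the middle and control at the right. Points are arrays with their replicate number, and bars give the mean and SD. CKO replicate 3 is the highest point in each panel, at 9.59 for Fgf23, and in each panel the range of the other CKO arrays overlaps that of the control arrays.

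Fgf11 belongs to the intracellular FGF homologous factors, which act on sodium channels and do not engage the receptors. It read 4.27, 5.44, 4.38, 5.49 and 5.30 in CKO arrays, 4.40, 5.01 and 4.61 in double heterozygous arrays and 4.32, 4.55 and 4.33 in control arrays. CKO replicates 2, 4 and 5 were above all others and CKO replicates 1 and 3 lay at control level or below, so the group fell into separate levels. The difference was 0.58 (SE 0.27, interval -0.0012 to 1.15, adjusted p = 0.380), and its other probe set gave 0.02. Fgf11 is near the floor of the scale, at a mean level of 4.74. Its difference was 1.22 with an offset of 1 and 0.22 with an offset of 64. Fgf13, of the same subfamily, read 9.06, 9.17, 8.91, 9.30 and 9.05 in CKO arrays, 9.23, 9.13 and 9.06 in double heterozygous arrays and 9.08, 9.24 and 9.23 in control arrays. It differed by -0.09 with the narrowest standard error of the 36 genes (SE 0.094, interval -0.29 to 0.11). Fgf12 and Fgf14 differed by 0.06 and 0.01, and both their mean levels lay under 5.

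Fgf6, a ligand known from skeletal muscle, read 5.45, 5.33, 5.25, 5.13 and 5.03 in CKO arrays, 4.51, 4.90 and 4.90 in double heterozygous arrays and 5.04, 5.19 and 4.69 in control arrays. All CKO arrays lay above all double heterozygous arrays, on each of the 3 scalings tried, while control arrays overlapped both. CKO minus double heterozygous was 0.47 (SE 0.16, interval 0.12 to 0.82, adjusted p = 0.270), the smallest adjusted p of the 36 genes in that comparison. Fgf6 and Spry2 were the 2 genes with an unadjusted p under 0.05 there, 5.56% of the 36 against 13.3% of all genes, and Fgf6 alone was separated, 2.78% against 3.65% on the higher side. Fgf5 read 4.53, 4.02, 4.91, 4.45 and 4.51 in CKO arrays, 4.64, 4.99 and 4.85 in double heterozygous arrays and 4.62, 4.67 and 4.24 in control arrays. Fgf7, a mesenchymal ligand for epithelium, read 4.58, 5.32, 4.91, 4.51 and 4.63 in CKO arrays, 5.44, 4.79 and 4.90 in double heterozygous arrays and 4.75, 4.99 and 4.47 in control arrays. Both overlapped in all comparisons, at -0.34 for Fgf5 (interval -0.73 to 0.05) and -0.25 for Fgf7 (interval -0.69 to 0.20) in CKO over double heterozygous arrays. Without CKO replicate 2, the lowest array for Fgf5 and the highest CKO array for Fgf7, these differences were -0.23 and -0.38. Against double heterozygous arrays 22 of the 36 genes had the higher mean in CKO, beside 47.7% of all genes. The median difference of the 36 was 0.08, beside -0.01 for all genes, and the intervals of 34 lay within a 2-fold change.

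The remaining ligands, Fgf1, Fgf2, Fgf18, Fgf21 and Fgf22, differed between CKO and control by -0.14, 0.04, -0.13, 0.02 and 0.18. The value of Fgf22 rests on CKO replicate 3, at 6.09, and was -0.0056 without that array and -0.06 when its probe sets were averaged. None had an interval that excluded 0. Of the 22 ligands 10 had a mean level under 5, as did Spred3, and Fgf2 was listed at an intensity of 0 in 1 array. For such genes the offset of 16 shrinks any change, so the narrow intervals there say little about the genes themselves. In double heterozygous against control arrays 25 of the 36 genes had the higher mean, beside 48.8% of all genes. The median difference of the 36 was 0.08, beside -0.004 for all genes, and the intervals of 35 lay within a 2-fold change. All 3 double heterozygous arrays lay above all controls for Spry1 alone (2.78%, against 4.89% of all genes) and below for Spred3 alone (6.22% of all genes). On the deposited scale Spry1 no longer did so, and Fgf4 joined Spred3 on the lower side. After median centring Dusp6, Etv5 and Spry1 lay above all controls, 8.33% of the 36 against 3.74% of all genes, and Spred3 alone below. CKO and double heterozygous arrays are both set against the same 3 controls, so these counts are not independent.

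**Figure D4:**
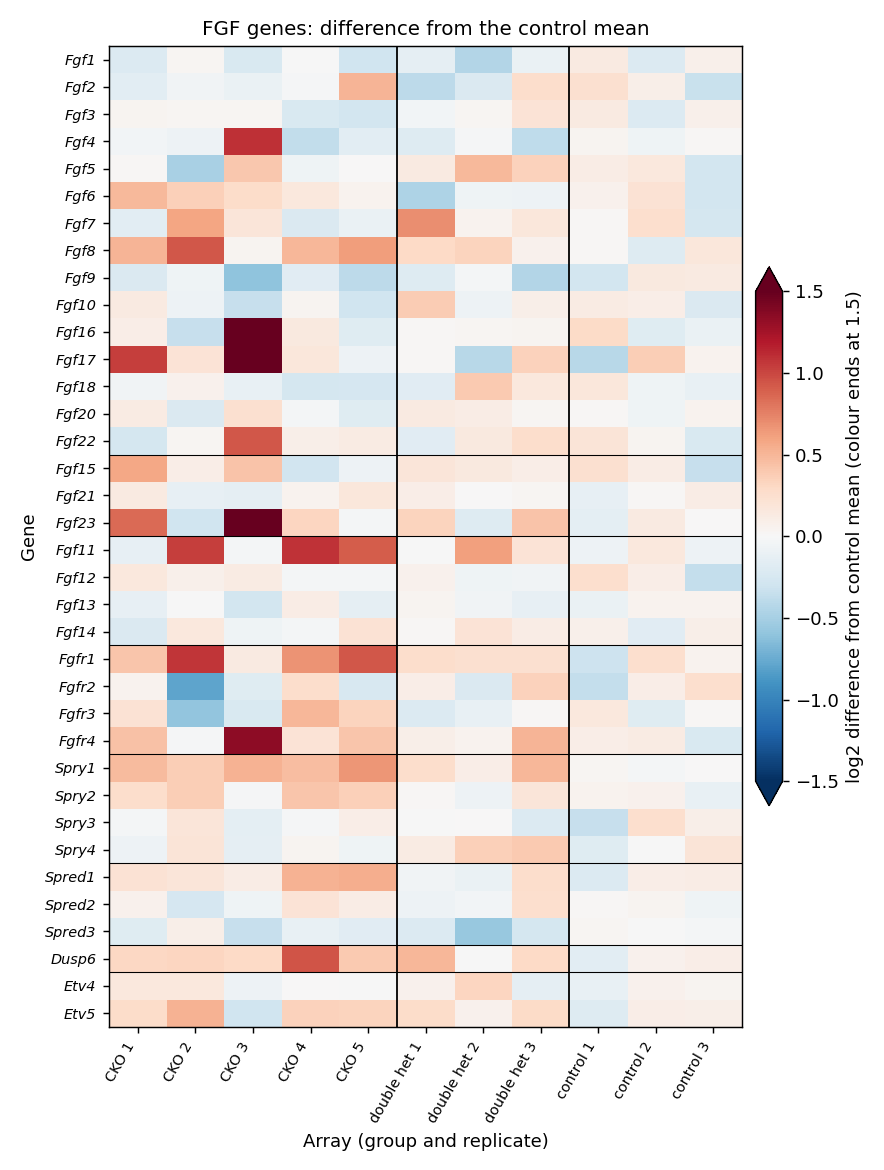
Difference of each of the 36 FGF genes in each of the 11 arrays from that gene's mean in control arrays, in log2 units, with genes grouped by role down the page and arrays grouped by genotype from CKO at the left to control at the right. Red is higher and blue lower than the control mean. CKO replicate 3 stands out in the ligand rows Fgf4, Fgf16, Fgf17, Fgf22 and Fgf23, and Spry1 is higher in all CKO and double heterozygous columns.

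Partner genes of FGF signalling came from 5 lists, of which 74 of 82 genes were measured. The lists were chosen with earlier results of these data known, so their counts beside background shares are description only. In CKO against control arrays 4 of the 74 genes were called, beside 2.09% of all genes: Isl1, Gata4 and Fos higher and Sulf1 lower. Of the 12 regulators of Fgf8 and Fgf10 measured, 2 were called higher and 0 lower. This list holds both manipulated genes: Gata4, the targeted gene, and Nkx2-5, the Cre locus, which was at -0.53 without a call. Isl1, the LIM-homeodomain factor of the second heart field, averaged 8.31 ± 0.19 in CKO (n = 5), 7.62 ± 0.11 in double heterozygous (n = 3) and 6.94 ± 0.20 in control arrays (n = 3). It rose by 1.38 over control (SE 0.13, adjusted p = 8.4e-05) and by 0.69 over double heterozygous arrays (adjusted p = 0.0308), with no overlap between any of the 3 groups, and it was the 1 partner gene called against double heterozygous arrays, beside 0.55% of all genes. In double heterozygous against control arrays 0 partner genes were called. Gata4 was the other one above control, with the values given earlier. Tbx1, an activator of Fgf8 and Fgf10 in the mouse pharynx, had a mean level under 5 and a difference of 0.07 (interval -0.29 to 0.43).

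Among 18 other ERK-induced or ERK-restraining genes 1 rose and 0 fell, with a median difference of 0.11. Fos, an immediate-early gene, averaged 7.52 ± 0.43 in CKO (n = 5), 6.94 ± 0.11 in double heterozygous (n = 3) and 6.64 ± 0.10 in control arrays (n = 3), 0.88 above control (SE 0.19, adjusted p = 0.0356). The lowest CKO array, at 6.92, was above the highest control, at 6.72. Dusp5, another ERK phosphatase, averaged 6.83 ± 0.34 in CKO and 6.21 ± 0.10 in control arrays, without overlap and without a call (0.62, SE 0.17, adjusted p = 0.105). Of 18 heparan sulphate genes 0 rose and 1 fell. Sulf1, a sulphatase that trims heparan sulphate outside the cell, averaged 5.90 ± 0.15 in CKO (n = 5), 6.49 ± 0.28 in double heterozygous (n = 3) and 6.54 ± 0.17 in control arrays (n = 3), a difference from control of -0.64 (SE 0.15, adjusted p = 0.0499). Its call was lost under 20 of 23 alternatives, over which the difference ran from -0.80 to -0.35. The calls of Fos and Gata4 were each lost under 13 of the 23. The call of Isl1 was lost under 0 against control and under 12 against double heterozygous arrays.

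None of the 9 co-receptors and ligand carriers was called. Flrt1 had the smallest p, at 0.38 above control (adjusted p = 0.249), and Il17rd, a feedback inhibitor of FGF receptors, was 0.32 above (adjusted p = 0.385). None of the 17 adaptor and RAS-MAPK genes was called either. The smallest p there belonged to Gab1, a docking protein, at -0.35 (adjusted p = 0.147), and Nf1, a RAS inhibitor, at 0.43 (adjusted p = 0.20).

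Some markers of other cell types in the dissected region moved with genotype, in lists also chosen with earlier results of these data known. The sums below weigh the brightest genes of a list most, so they do not show that a whole list moved. Of 6 proepicardial and mesothelial markers Tcf21 fell by 1.31 and Lrrn4 fell by 1.20 in CKO against control arrays (adjusted p = 0.0171 and 0.00619), calls lost under 4 and 3 of the 23 alternatives, and the list's summed normalised intensity, offset included, was 449.2 to 1012.8 in CKO arrays, 625.8 to 908.1 in double heterozygous arrays and 1146.6 to 1236.3 in control arrays. Of 6 endothelial markers Kdr rose by 0.68 and Cdh5 by 0.63 while Tek fell by 0.65 (adjusted p = 0.00678, 0.0189 and 0.00150), calls lost under 5, 11 and 0 of the 23 alternatives, with sums of 1950.1 to 2448.9 in CKO, 1728.0 to 1777.1 in double heterozygous and 1734.1 to 1854.0 in control arrays. Of 7 pharyngeal endoderm markers Krt8 alone was called, 0.71 higher (adjusted p = 0.00255, lost under 2 of the 23 alternatives), with sums of 1264.4 to 1617.0 in CKO, 974.5 to 1201.6 in double heterozygous and 890.0 to 981.7 in control arrays, while Foxa2, Pax1 and Pax9 had mean levels under 5. The mean was higher in CKO for 6 of the 7 against control arrays (median difference 0.24). Against double heterozygous arrays it was higher for 2 of the 7 (median difference -0.04). Of 5 measured markers of pharyngeal mesoderm Isl1 alone was called, with sums of 658.4 to 819.0 in CKO, 551.2 to 638.7 in double heterozygous and 473.4 to 556.5 in control arrays. The mean was higher in CKO for 4 of the 5 against control (median difference 0.07) and for 2 of the 5 against double heterozygous arrays (median difference -0.01). None of 6 myocardial, 6 ectodermal or 5 erythroid markers was called, and Sox2 and Sox1 had mean levels under 5. The ectodermal sums were 255.0 to 791.3 in CKO, 225.2 to 350.9 in double heterozygous and 247.8 to 271.1 in control arrays. The part of cell composition in the FGF gene values was not tested.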

How the data were processed

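Expression was measured in RNA of pooled mouse hearts on 11 one-colour oligonucleotide arrays, grouped by the genotype in their labels. Total RNA (50 ng) was amplified and labelled, per the labels' protocols. The authors deposited linear intensity values, 1 per probe set and array, and PLIER is the tool named in the submitters' processing notes. No source used here gives its version, the background correction, the scaling or detection calls, so no gene was called present or absent. All array columns were used. Of 45101 probe sets 64 controls were left out.

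The deposited intensities were turned into log2(value + 16), and the arrays were quantile normalised, since their medians spanned 0.465, over a limit of 0.2. Limma 3.58.1 in R 4.3.3 (lmFit, eBayes with an intensity trend, 8 residual and 15.07 moderated degrees of freedom) was fitted to 45037 probe sets and all 11 arrays. Tests were two-sided, with Benjamini-Hochberg adjustment over all probe sets within each comparison and calls at an adjusted p under 0.05. The fit was tested on simulated data. The number of arrays limits the precision, and Pearson correlations between arrays ran from 0.954 to 0.990.

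Symbols came from the platform annotation, in which 34945 probe sets had 1 symbol, 932 several and 9160 none; all 36 FGF genes matched RefSeq. No gene coordinates are given, since no genome build is named for the array. Motifs and promoter letters came from RefSeq windows (GRCm38.p6). The genes, the partner and marker lists and the tests were chosen with earlier results of these data known. Values in every array were given for the 6 genes with the largest change in each comparison, the 4 ligands with the highest mean, the 4 receptors and a set list (Fgf8, Fgf10, Fgf15, Fgf9, Fgf16, Fgf3, Spry1, Spry2, Spry4, Dusp6, Etv4, Etv5), with Spred1 added after its values were seen. From partner lists, called genes were named, or otherwise the 2 with the smallest p in CKO against control, with Dusp5 and Tbx1 added afterwards. Alternatives changed the offset, scaling, variance prior, filter, choice of probe set, block and arrays used.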

Additional observations from a re-analysis of the deposited data

Results flagged for a closer look

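In 4 of the 36 CKO groups, which have 5 arrays each, 1 array stood far from the other 4 relative to the range of the group; groups of 3 were not tested, and chance gives about 1 in 20. Dusp6 read 9.38 in CKO replicate 4 and 8.73 to 8.83 in the other CKO arrays. Fgf16 read 6.93 in CKO replicate 3 and 5.06 to 5.54 in the others. Fgf4 read 6.91 in CKO replicate 3 and 5.44 to 5.76 in the others. Fgf2 read 4.91 in CKO replicate 5 and 4.23 to 4.38 in the others.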

How the results depend on the processing

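The 36 FGF genes were refitted under 23 alternatives, 11 of which left out 1 array each. In CKO against control arrays the count of called FGF genes was 0 in the main fit, beside 1.4% of all probe sets. It became 1 with dim probe sets left out (Spry1, with 18 of the genes tested), beside 4.02% of all probe sets kept. With the mean of each gene's probe sets it was 1 (Spry1), beside 1.38% of all rows tested. Without CKO replicates 2 and 3 it was 2 (Fgfr1 and Spry1), beside 3.02%. Leaving out 1 array gave 0 to 2 called FGF genes. These were Spry1 without CKO replicate 2 (beside 1.99%), and Fgf8 and Fgfr1 without CKO replicate 3 (beside 1.98%). In the other comparisons and the F-test the count of called FGF genes was 0 under every alternative. Of the 36 differences from control 18 kept their sign under all alternatives, and Fgfr3 and Spred2 changed sign on the deposited scale and after median centring. The count of all probe sets called in CKO against control, 632, ran from 92 on the deposited scale to 1362 without CKO replicates 2 and 3. Partner genes called in CKO against control, 4, came to 1 (Isl1) on the deposited scale, after median centring, without intensity trend, with classical statistics, with only the groups compared and with the replicate number as a block, and to 8 without CKO replicates 2 and 3; leaving out 1 array gave 1 to 6. In CKO against double heterozygous arrays the 1 partner gene called came to 0 under each of the first 6 of these and to 3 without CKO replicates 2 and 3; leaving out 1 array gave 0 to 3. The causes were not tested. With the replicate number as a block 0 FGF genes and 265 probe sets were called in CKO against control. Deviations of same-numbered arrays correlated at -0.056 to 0.150. The labels do not say whether same-numbered arrays belong together, and these values have no reference level, so they cannot settle it. Genes near the floor of the scale limit what can be seen.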
